A study of Mus musculus with 6 samples.

Results

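The RNAs described here are 7 short structured noncoding RNAs and the ribosomal RNA precursor, measured by RNA-seq in mouse quadriceps muscle. They were taken from the count files by symbol: Rpph1, Rmrp, Rn7sk, Terc, Rny1, Rny3, Vaultrc5 and Rn45s. All 8 were among the 27179 genes listed. The set was chosen on the measured levels of Rpph1 and Rmrp, which were higher in the knockout libraries, so the difference between genotypes in these 2 RNAs is given as a description, without a test. The 3 miDrp1KO mice (libraries A, E and F) carried a floxed Dnm1l gene, which encodes the mitochondrial fission protein Drp1, and the HSA-MerCreMer transgene. This transgene is a tamoxifen-dependent Cre driven by the human skeletal actin (ACTA1) promoter, so that the deletion is aimed at muscle fibres and the other cells of the tissue keep the gene. The 3 control mice (libraries B, C and D), labelled Control f/f, carried the floxed gene without deletion. Both groups were males on a C57BL/6J background fed normal chow, both received tamoxifen at 3 months of age, and muscle was taken 3 weeks after the deletion. Libraries were made from total RNA after depletion of ribosomal RNA.

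Most of these RNAs are made by RNA polymerase III and work as parts of RNA-protein particles. Rpph1 is the catalytic RNA of RNase P, which trims the 5′ leader from precursor tRNAs. Rmrp is its relative in RNase MRP, which cuts the ribosomal RNA precursor and shares most of its proteins with RNase P. Rn7sk holds the elongation kinase P-TEFb in an inactive particle with Hexim1, Larp7 and Mepce. Rny1 and Rny3 are Y RNAs, bound by Ro60 and La. Vaultrc5 is a vault RNA, a minor component of the vault particle, and Terc is the template RNA of telomerase. Rn45s is the long precursor, made by RNA polymerase I, from which most ribosomal RNA is cut.

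The sequences of the paired RNAs are shown first, since Rpph1 and Rmrp carried the pattern that chose the set and the Y RNAs are the other related pair. They are from GENCODE M21 transcripts on GRCm38, 5′ to 3′ and written with T. Bases 1 to 300 of the 319 of Rpph1 lie at chr14:50807468-50807767 on the minus strand, and the 271 bases of Rmrp at chr4:43492788-43493058 on the minus strand. Capitals mark the longest runs that both RNAs hold, 9 bases each.
Rpph1: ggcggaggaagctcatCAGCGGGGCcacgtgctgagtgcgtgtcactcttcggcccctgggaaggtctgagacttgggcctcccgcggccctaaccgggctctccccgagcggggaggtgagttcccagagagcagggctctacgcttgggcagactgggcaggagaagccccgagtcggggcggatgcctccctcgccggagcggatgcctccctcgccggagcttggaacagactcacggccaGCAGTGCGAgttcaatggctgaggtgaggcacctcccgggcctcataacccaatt
Rmrp: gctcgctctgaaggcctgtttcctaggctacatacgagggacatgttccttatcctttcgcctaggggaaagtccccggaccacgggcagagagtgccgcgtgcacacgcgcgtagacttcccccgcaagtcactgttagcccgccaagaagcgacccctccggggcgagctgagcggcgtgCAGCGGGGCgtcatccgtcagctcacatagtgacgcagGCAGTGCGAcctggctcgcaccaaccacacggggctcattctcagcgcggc

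A global alignment of the whole RNAs gave 52.0% identical columns for Rpph1 and Rmrp, beside 51.6% for Rpph1 and Rn7sk, so the relation between the first pair did not show in overall identity. The Y RNAs, at chr6:47788069-47788180 on the minus strand for Rny1 and chr6:47781624-47781725 on the plus strand for Rny3, were 72.3% identical. Capitals mark their longest shared run, of 12 bases.
Rny1: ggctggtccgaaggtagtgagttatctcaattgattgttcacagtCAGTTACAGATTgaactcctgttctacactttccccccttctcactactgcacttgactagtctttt
Rny3: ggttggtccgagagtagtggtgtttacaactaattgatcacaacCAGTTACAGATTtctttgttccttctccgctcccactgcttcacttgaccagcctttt

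For Rn7sk, the first 120 bases are shown (chr9:78175514-78175633, minus strand), because this end holds the GATC repeats to which Hexim1 binds. All 3 GATC matches of the whole RNA lie here and are in capitals. For Terc, the first 96 bases are shown (chr3:96414764-96414859, minus strand), with the template for telomeric repeats in capitals.
Rn7sk: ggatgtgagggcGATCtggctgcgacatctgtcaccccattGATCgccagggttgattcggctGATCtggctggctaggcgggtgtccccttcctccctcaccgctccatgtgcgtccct
Terc: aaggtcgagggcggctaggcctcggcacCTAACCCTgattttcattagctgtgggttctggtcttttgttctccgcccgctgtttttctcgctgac

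The libraries held between 13989588 and 62042255 counts. Levels are given as counts per 1000000 (CPM), the count divided by the library size after TMM scaling, a correction for composition. The biological coefficient of variation was 0.2522 in the edgeR fit over the 16483 genes that passed its filter on low counts. In that fit 2 genes, 0.0121% of those tested, had an adjusted p under 0.05. They were Esr1, with a log2 fold change of 3.87, and Unc5a, with one of -3.01, both named after their values were seen. MerCreMer is itself a fusion of Cre with estrogen receptor domains. The targeted gene Dnm1l was lower in each miDrp1KO library (66.2 to 81.3 CPM) than in each control library (114 to 156 CPM). Its log2 fold change of -0.91 (SE 0.18) had an adjusted p of 0.362. In 7.67% of the tested genes every miDrp1KO library lay above every control library, and in 18% the groups did not overlap in either direction.

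A pair of libraries stood apart in other structured RNAs, of which Rnu2-10 and Rnu1a1 are named after their values were seen. Rnu2-10, a U2 spliceosomal RNA, was at 1.38 CPM in control library C and 0.923 in miDrp1KO library A, but at 24.1 in B, 18.4 in D, 65.2 in E and 63.6 in F. The U1 RNA Rnu1a1 was at 0.146 CPM in C and 0.0972 in A, and between 6.0 and 13.4 in the rest. A and C thus form a pair with 1 library from each group, and results are also given for E and F against B and D alone. That comparison was added after seeing the data. The cause of the difference between these libraries was not tested. The sources used here do not say which library was sequenced in which pool.

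Markers of skeletal muscle fibres were detected in every library, as the labelled tissue requires. Their summed level over 10 genes was 235454 to 293463 CPM in controls and 220518 in A, 136637 in E and 108713 in F. Of the 10, 9 had a negative log2 fold change and 4 were lower in every miDrp1KO library than in every control, beside 10.3% of all tested genes, and none passed the test. Over 6 fibroblast markers the sum was 1218 to 1714 CPM in controls and 1347 to 2291 CPM in miDrp1KO libraries, with all 6 log2 fold changes positive. Over 5 Schwann cell markers it was 35.6 to 49.9 and 39.6 to 70.8 CPM, again with all 5 positive. Over 5 adipocyte markers it was 301 to 421 and 226 to 275 CPM, with all 5 log2 fold changes negative. The sums were 155 to 278 and 162 to 252 CPM over 6 endothelial markers, 148 to 273 and 214 to 244 CPM over 6 macrophage markers, and 47.2 to 272 and 73.1 to 231 CPM over 4 blood markers. No marker of these 7 lists passed the test over all 6 libraries. The part of these differences in the values below was not tested. In bulk tissue, fewer cells of a type and less RNA per cell cannot be told apart.

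Rpph1 was measured at 379 CPM in control library B, 810 in C and 457 in D. In miDrp1KO libraries it was at 967 in A, 1556 in E and 2488 in F. Each miDrp1KO library lay above each control library, but A exceeded C by a factor of only 1.19. The means were 549 ± 230 CPM in controls and 1670 ± 767 CPM in miDrp1KO mice (SD, n = 3 each), with a log2 fold change of 1.61 (SE 0.40).

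Rmrp was at 226, 310 and 234 CPM in B, C and D, and at 388, 645 and 851 CPM in A, E and F. The groups again did not overlap, and the lowest miDrp1KO library was at 1.25 times the highest control. The means were 257 ± 46.5 and 628 ± 232 CPM (SD, n = 3 each), with a log2 fold change of 1.29 (SE 0.28). The order of the 6 libraries was the same for Rmrp as for Rpph1: B lowest, then D, C, A, E and F.

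**Figure D1:**
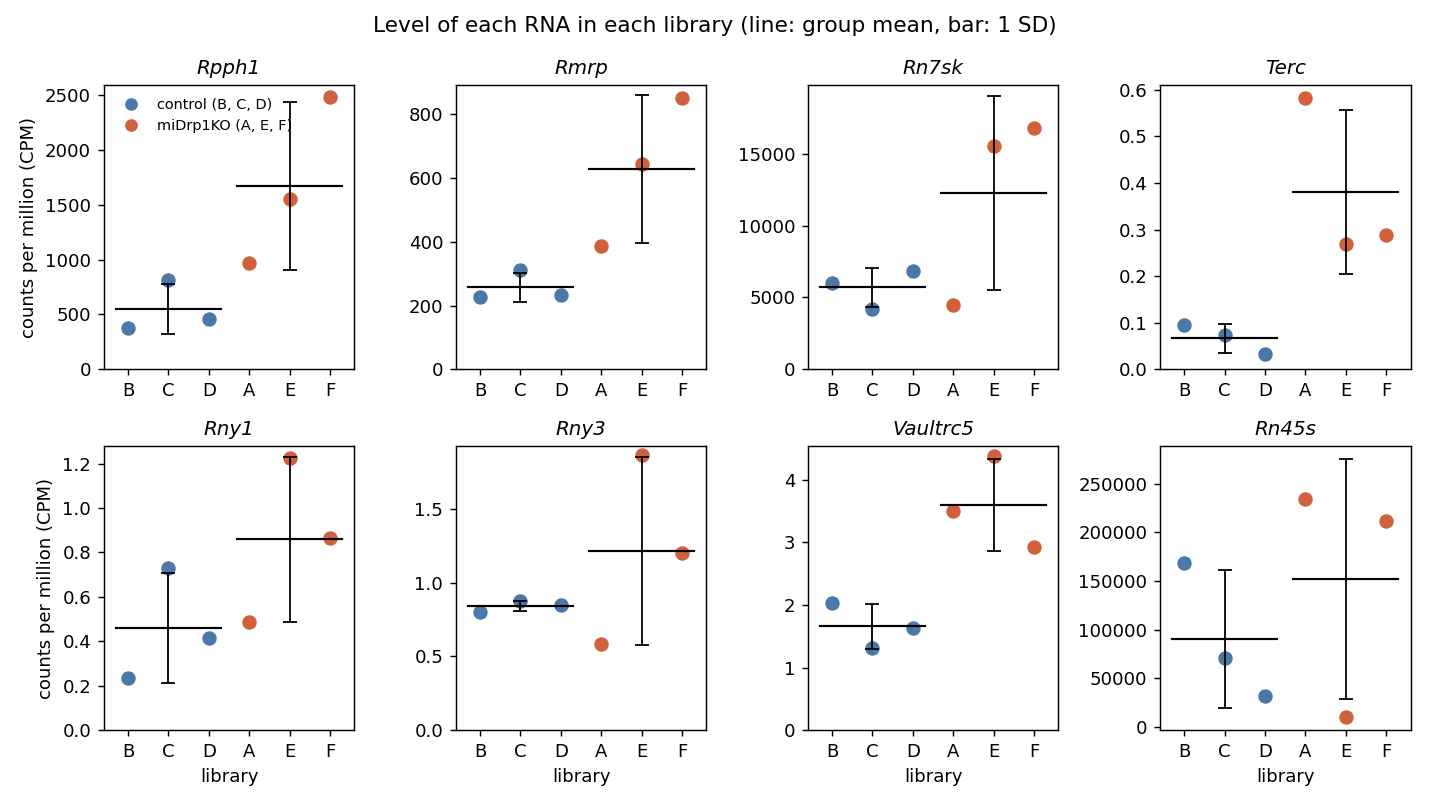
Level in CPM of each of the 8 RNAs in the 3 control libraries (B, C, D) and the 3 miDrp1KO libraries (A, E, F), 1 panel per RNA with its own linear axis. Lines are group means and bars 1 SD. Rpph1, Rmrp, Terc and Vaultrc5 are higher in each miDrp1KO library than in each control, while the groups overlap for Rn7sk, Rny1, Rny3 and Rn45s.

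Rn7sk was the most abundant of the short RNAs. It was at 6008 CPM in B, 4222 in C and 6854 in D, and at 4487 in A, 15572 in E and 16776 in F. The groups overlapped, because A lay below B and D, while the lower of E and F was 2.27 times the highest of the other libraries. The means were 5695 ± 1344 and 12278 ± 6775 CPM (SD, n = 3 each). The log2 fold change of 1.11 (SE 0.46) had an adjusted p of 0.431 in edgeR, and the two-sided exact permutation test gave p = 0.3. With 3 libraries against 3, the exact test cannot go below p = 0.1.

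Vaultrc5 was rare but better separated. It was at 2.04 CPM in B, 1.31 in C and 1.63 in D, and at 3.50 in A, 4.39 in E and 2.93 in F, from 18 to 179 counts a library. Every miDrp1KO library lay above every control, as in 7.67% of all tested genes, with the lowest 1.44 times the highest control. The log2 fold change was 1.11 (SE 0.29), with an adjusted p of 0.362 and an exact permutation p of 0.1, the smallest possible here.

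Terc was close to the limit of counting and did not enter the fit. The control libraries held 2 counts in B, 1 in C and 2 in D, and the miDrp1KO libraries 12 in A, 11 in E and 6 in F. Each miDrp1KO library thus exceeded each control. Pooled over libraries of different depth, 29 counts against 5 gave a ratio of 6.69, with an exact 95% interval from 2.56 to 22.1 that covers counting error only. The exact permutation test on log2 CPM gave p = 0.1, the smallest possible.

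The Y RNAs were also rare. Rny1 was at 0.237, 0.729 and 0.416 CPM in B, C and D, and at 0.486, 1.23 and 0.864 CPM in A, E and F. Its groups overlapped, with a log2 fold change of 0.99 (SE 0.56), an adjusted p of 0.548 and an exact permutation p of 0.2. Rny3 was at 0.805, 0.875 and 0.850 CPM in the same controls, and at 0.583, 1.86 and 1.2 CPM in A, E and F. Library A was thus the lowest of all for Rny3 and E the highest. The log2 fold change was 0.56 (SE 0.45), with an adjusted p of 0.682 and an exact permutation p of 0.5, and without library E the log2 fold change was 0.09.

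Per kilobase of RNA, by RefSeq gene length, the order of the levels was led by Rn7sk, at a mean of 17153 CPM per kb in controls and 36983 in miDrp1KO mice. Rpph1 followed at 1688 and 5138 CPM per kb, then Rmrp at 933 and 2284. Rny3 was at 8.35 and 12.03, Vaultrc5 at 4.81 and 10.4, Rny1 at 4.15 and 7.73, and Terc at 0.169 and 0.958. The 3 abundant RNAs kept their order in all 6 libraries, whereas Rny1, Rny3 and Vaultrc5 lay within overlapping ranges. Short, highly similar copies of Rn7sk and of the Y RNAs occur in the genome. The sources used here do not state how reads on such copies were counted, so these levels are uncertain.

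Of the 8 RNAs, 7 passed the filter on low counts. Rpph1 and Rmrp chose the set, which fixed the direction of their difference. The other 5 had log2 fold changes between 0.56 and 1.11. With its own share in the fit Rn45s was at -0.26, but that share is computed from its counts. The fit thus cannot tell the direction of Rn45s. None of the 5 passed in edgeR, while Rn7sk and Vaultrc5 had an unadjusted p under 0.05 with higher values, as did 4.68% of all tested genes. Over all 16483 tested genes the median was 0.02 and 8572 were positive. All members were counted in the same 6 libraries, so their values are not independent of each other.

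The libraries A and C gave a different picture from the others. Without them, the log2 fold change of Rpph1 was 2.25 and that of Rmrp 1.67, with the lowest of E and F 3.40 and 2.76 times the highest of B and D. A over C was 1.19 for Rpph1 and 1.25 for Rmrp. For Rn7sk the values were a log2 fold change of 1.30 (adjusted p 0.0864 in edgeR, within a range of 0.0672 to 0.877 over all alternatives) and a ratio of A to C of 1.06. Rny1 and Rny3 were at log2 fold changes of 1.58 and 0.87, and their ratio of A to C was 0.667 in both, from equal counts. Vaultrc5 was different, with a log2 fold change of 1.0 in the 4 libraries and a ratio of A to C of 2.67. In this comparison of 2 libraries against 2, 164 of 17808 tested genes (0.921%) passed, 45 of them higher, against 2 in the fit on all 6.

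**Figure D2:**
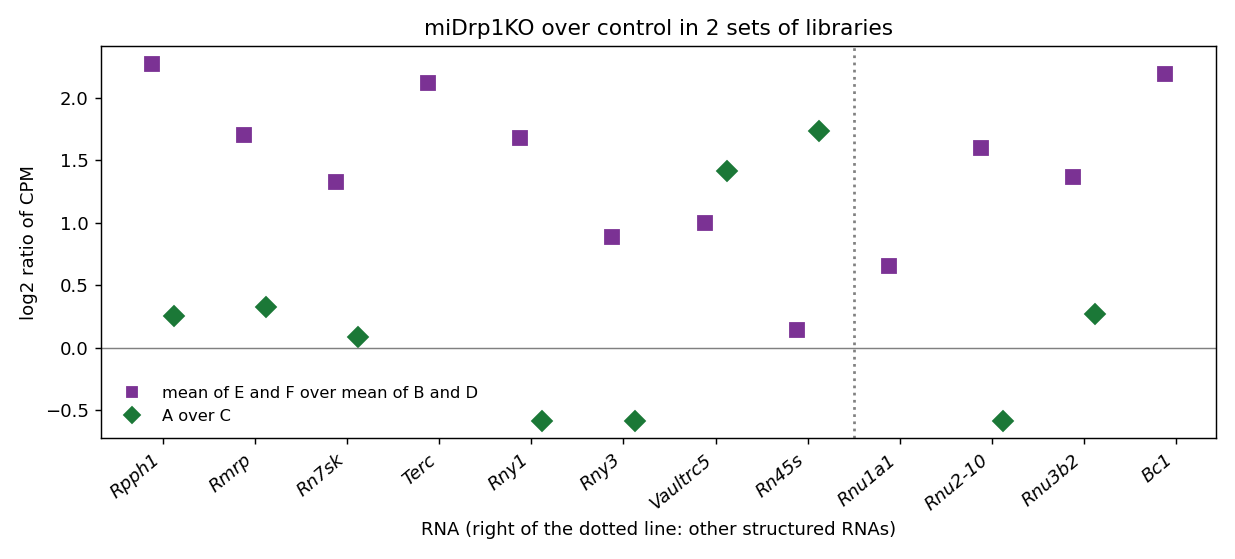
The log2 ratio of CPM for the 8 RNAs and 4 other structured RNAs in 2 sets of libraries: the mean of E and F over the mean of B and D (squares), and A over C (diamonds, left out where A or C held 3 counts or fewer). Rpph1, Rmrp and Rn7sk are near 0 in A over C and above 1 in the other set, while Vaultrc5 is at about 1 or more in both.

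The Rn45s row took a widely varying share of each library. It held 14.2% of all counts in B, 6.92% in C and 3.04% in D, and 19.8% in A, 1.36% in E and 22.02% in F. The lowest and the highest share both came from miDrp1KO mice. As a level, Rn45s had a log2 fold change of 0.75 (SE 1.11), an adjusted p of 0.844 and an exact permutation p of 0.9. It rested on single libraries, with values of 1.60 without B, 1.31 without E, 0.59 without C, 0.45 without F, 0.37 without D and 0.33 without A, and was 0.14 in limma voom. All 28 ribosomal RNA rows together took 1.48% to 24.4% of counts. After depletion, this share measures what ribosomal RNA was left as well as what was made, and these cannot be told apart here.

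The levels of the short RNAs were compared with this share over the 6 libraries. E and F, with the highest Rpph1 levels, had the lowest and the highest Rn45s share. For Rpph1, Pearson's r between log2 CPM and log2 share was 0.07 (exact permutation p = 0.899) and Spearman's rho 0.26 (p = 0.658 by the same test). For Rmrp, r was 0.04 (exact permutation p = 0.95) and rho 0.26 (p = 0.658 by permutation). Across the 7 RNAs r ran from -0.62 for Rny3 to 0.35 for Terc, and rho from -0.37 to 0.60. No adjusted p over these 7 relations was below 0.95. Without E and D, the libraries farthest from the median share, r was 0.45 for Rpph1, 0.57 for Rmrp, 0.60 for Rn7sk and 0.95 for Vaultrc5. It was 0.79 for Terc, -0.05 for Rny1 and 0.02 for Rny3. These values rest on 4 libraries, too few for a relation to be read from them.

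In an edgeR fit with genotype held fixed, the change per doubling of the Rn45s share was 0.03 on the log2 scale for Rpph1 (SE 0.15) and -0.01 for Rmrp (SE 0.10). It was -0.12 for Rn7sk, -0.07 for Vaultrc5, -0.21 for Rny1 and -0.22 for Rny3. The adjusted p was 0.99989 for each of these 6 RNAs. Over all genes this coefficient passed in 0 of 16483 (0%) in edgeR, with 314 (1.9%) at an unadjusted p under 0.05. With the share in the fit, the log2 fold change between genotypes was 1.59 for Rpph1 and 1.29 for Rmrp, and 1.13 for Rn7sk and 1.12 for Vaultrc5. These differed from the values without the share by less than their errors.

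**Figure D3:**
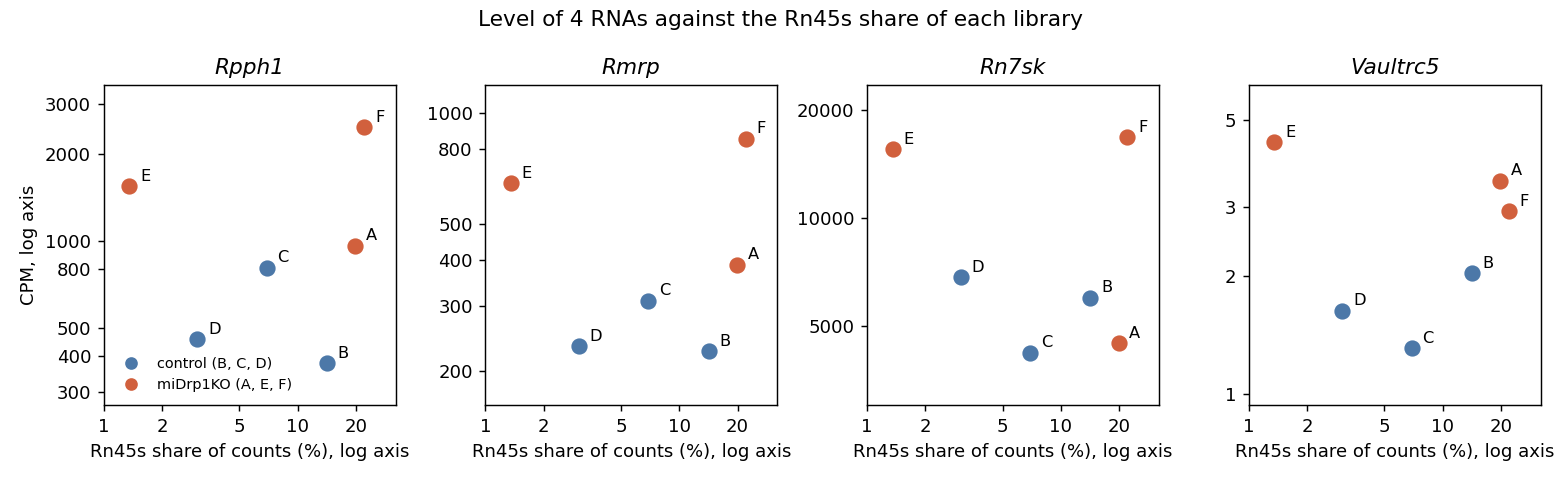
Level in CPM of Rpph1, Rmrp, Rn7sk and Vaultrc5 against the percentage of counts on Rn45s in each library, both on log axes, with 1 point per library. Library E, at 1.36%, and library F, at 22.02%, both lie near the top for Rpph1, Rmrp and Rn7sk.

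Ratios within a library do not depend on its scaling. Rpph1 to Rmrp was 1.68 in B, 2.61 in C and 1.96 in D, and 2.49 in A, 2.41 in E and 2.92 in F. This ratio varied less than either level, and the groups overlapped. Rpph1 as a percentage of Rn7sk was 6.30% in B, 19.2% in C and 6.67% in D, and 21.5% in A, 9.99% in E and 14.8% in F. A and C had the highest percentages, and the groups overlapped here too.

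Among the 13563 other genes with a mean of at least 1 CPM, those most like Rpph1 by Pearson's r of log2 CPM over the 6 libraries were Igfbp6 (0.998), Atp5j2, Snord17, Tomm7 and Churc1 (all 0.988). Rmrp came at rank 11 with r = 0.984. For Rmrp they were Ndufa2 (0.993), Lactb2 (0.992), Cox7b (0.991), Cox8b (0.991) and Igfbp6 (0.990), and Rpph1 stood at rank 12. Atp5j2, Ndufa2, Cox7b and Cox8b encode small subunits of the respiratory chain complexes or ATP synthase. Igfbp6 ran from 32.8 CPM in B to 78.1 CPM in F in the same order of libraries as both RNAs. With 6 libraries and this many genes, values near 1 are reached by many, and these are given as likeness only.

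Across all genes, the log2 fold change differed with transcript length. Among the 14833 tested genes with a transcript length in GENCODE M21 (90% of those tested), the median log2 fold change was 0.54 over 72 genes under 500 bases. It was 0.22 over 519 genes of 500 to 1000 bases, 0.05 over 2308 genes of 1000 to 2000 bases, and between -0.03 and -0.01 in the longer classes. The short class holds several of the RNAs described here. Without these and the other structured and nucleolar RNAs, 61 genes under 500 bases had a median of 0.39. The deviation from the mean of all libraries in the short class was largest in F, at a median of 0.54, and lowest in B, at -0.31. This breakdown was made after the data were seen, and its part in the members' values was not tested.

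**Figure D4:**
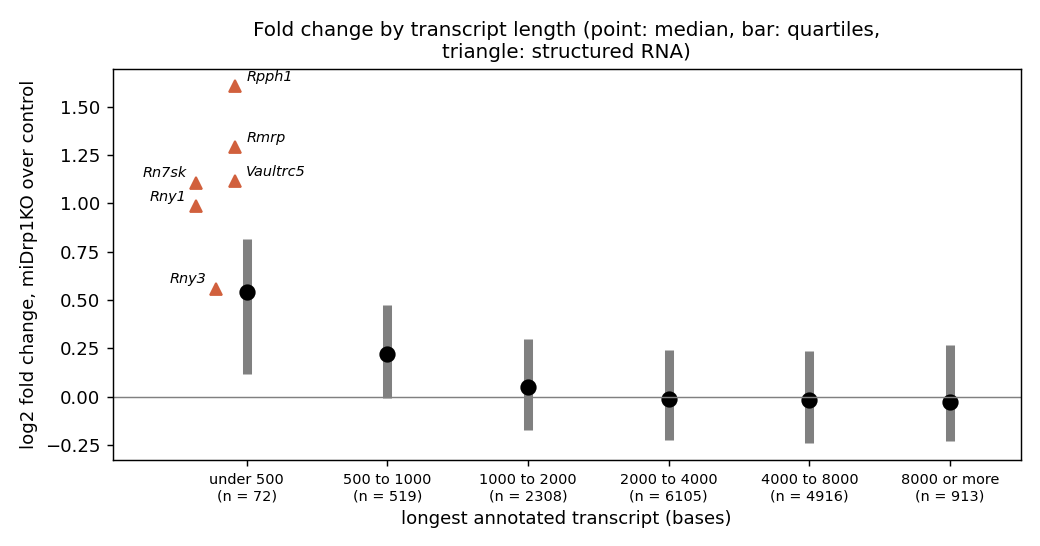
Median and quartiles of the log2 fold change of tested genes by the length of their longest annotated transcript, with the tested short RNAs as triangles. The median is 0.54 under 500 bases and near 0 above 2000, and all triangles except Rny3 lie above the upper quartile of the shortest class.

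The neighbours of the RNA genes were examined because several lie close to other start sites. Parp2, a DNA repair enzyme gene, starts 125 bases from Rpph1 in the opposite direction, by the RefSeq gene positions used for all distances here. Its level was 9.0 to 11.3 CPM in controls and 7.58 to 10.7 CPM in miDrp1KO libraries, with a log2 fold change of -0.18 (SE 0.19) and an adjusted p of 0.771. Ccdc107 starts 280 bases from Rmrp and had a log2 fold change of 0.23 (SE 0.21, adjusted p 0.712). C920006O11Rik starts 280 bases from Rn7sk and was at -0.77 (SE 0.59, adjusted p 0.664), from 0.292 to 1.31 CPM. Zmat2, the nearest gene to Vaultrc5, was at -0.27 (SE 0.18, adjusted p 0.602). None of these coding or long noncoding neighbours passed the test.

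The 125 bases between Parp2 and Rpph1 are shown because members of this class are usually read from upstream elements, an octamer bound by Oct-1 and a TATA-like element. They are from RefSeq's window around the start of Parp2 (GRCm38.p6), at chr14:50807772-50807896, written 5′ to 3′ on the strand of Rpph1. The stretch for Rmrp is from the window of Ccdc107, at chr4:43493115-43493339, also on the strand of the RNA, and stops 56 bases short of it. Capitals mark the octamer ATTTGCAT and TATAA, each searched on both strands.
Rpph1 upstream: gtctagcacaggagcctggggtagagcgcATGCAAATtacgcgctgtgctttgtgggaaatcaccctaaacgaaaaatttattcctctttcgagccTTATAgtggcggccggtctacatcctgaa
Rmrp upstream: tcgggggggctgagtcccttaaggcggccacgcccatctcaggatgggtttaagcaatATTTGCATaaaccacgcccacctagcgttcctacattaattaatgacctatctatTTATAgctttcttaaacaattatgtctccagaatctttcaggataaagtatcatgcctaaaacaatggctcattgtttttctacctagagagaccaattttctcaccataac

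The octamer was found 1 time in each stretch, starting 96 bases before Rpph1 and 222 bases before Rmrp in RefSeq. The GENCODE transcripts shown above start 4 bases further in for Rpph1 and 1 base for Rmrp, which makes these distances 100 and 223 bases. Of all 32851 promoter windows cut to the same length, 0.825% held it at 125 bases and 1.47% at 225 bases. TATAA was found 1 time in each, 29 bases before Rpph1 and 167 bases before Rmrp in RefSeq, or 33 and 168 bases from the GENCODE starts. These matches are not at like distances. The stretch for Rmrp stops 56 bases short, so bases as near to Rmrp as the match is to Rpph1 were not searched. It was held by 12.3% of windows at 125 bases and 20.6% at 225 bases. The 250 bases before Rn7sk in the window of C920006O11Rik, which stop 31 bases short of the RNA, held the octamer 0 times. TATAA matched 3 times over both strands, at 140, 98 and 97 bases before the RNA. The matches at 98 and 97 overlap in the stretch TTATAA. At that length 22.8% of windows held TATAA and 1.6% the octamer, and the absence says only that these letters are not in this stretch. Such a match is a description of the sequence and not a site in use.

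The proteins that work with these RNAs did not move with them in a way that passed the test. Of the RNase P and MRP proteins, 10 of 11 were tested, 6 had positive and 4 negative log2 fold changes, and the median was 0.08. They ran from -0.18 for Pop1, the scaffold protein, to 0.33 for Rpp21, a subunit of RNase P (adjusted p 0.555). Rpp30, which both enzymes share, was at 0.21 (SE 0.19). The 7 genes of the 7SK particle and P-TEFb all had negative values, with a median of -0.21. They ran from -0.36 for Hexim2 (adjusted p 0.609) to -0.001 for Ccnt2. Larp7, which binds the 3′ end of Rn7sk, was at -0.36 (SE 0.25), Hexim1 at -0.13 and the kinase Cdk9 at -0.35.

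Telomerase proteins had a median of 0.17 over 7 tested genes, from -0.37 for Wrap53 to 0.44 for Nop10 (adjusted p 0.416), and Dkc1, the pseudouridine synthase bound to Terc, was at -0.20. For the Y RNAs, Trove2 (Ro60) was at 0.15 and Ssb (La) at 0.09. Of the 3 vault proteins, the major vault protein Mvp was at -0.39 (SE 0.16, adjusted p 0.425), Tep1 at -0.06 and Parp4 at 0.13.

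The 13 subunits of RNA polymerase III had a median of -0.09. They ran from -0.47 for Polr3c to 0.64 for Polr1c, which RNA polymerase I also uses, and 9 of 13 were negative. The 19 factors that guide or restrain the polymerase had a median of -0.13, from -0.43 for Brf1, a subunit of TFIIIB, to 0.33 for Snapc1, a subunit of the SNAPc complex, which binds promoters of small nuclear RNA genes. The repressor Maf1 was at 0.05 (SE 0.21). RNA polymerase I and its factors had a median of -0.07 over 13 genes, from -0.57 for Taf1c to 0.19 for Polr1e. Genes of precursor processing had a median of -0.16 over 25 genes, of which 22 were negative. They ran from -0.70 for Nop14 (adjusted p 0.379) to 0.07 for Fbl. Of the 99 tested genes in these 9 lists, 0 passed in edgeR and 12 had an unadjusted p under 0.05, 2 of them higher and 10 lower in miDrp1KO libraries. Over all genes 10.9% had such a p, and 4.68% had it with higher values.

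Other structured RNAs had values closer to the members. Of 26 listed, 19 had a row and 11 were tested. Their median log2 fold change was 1.14, but 0.71 without library E. Of the 11, 10 were positive, beside 8572 of all 16483 tested genes. In edgeR, 4 had an unadjusted p under 0.05 with higher values, beside 4.68% of all tested genes. None had an adjusted one, while DESeq2 called Rnu3b2. Some held few counts, such as Rnu1b1 with 1 to 6 in controls and 3 to 25 in miDrp1KO libraries, so these tallies are a description. The 11 RNAs ran from -0.08 for Rnu1b6 to 2.01 for Bc1, a short neuronal RNA made by RNA polymerase III. Rnu3b2, a U3 RNA needed for cutting the ribosomal precursor, was at 11.1, 12.6 and 9.43 CPM in B, C and D and at 15.2, 32.5 and 20.5 CPM in A, E and F. Its log2 fold change was 1.05 (SE 0.26, adjusted p 0.362 in edgeR), and the groups did not overlap, as in 18% of all tested genes. Small nucleolar and Cajal body RNAs, which guide modification of other RNAs, had 28 tested of 123 rows. The median of these 28 was 0.70, but it was 0.34 with no filter on low counts. None passed in edgeR and 23 were positive. An unadjusted p under 0.05 was reached by 9, all in the higher direction, beside 4.68% of all tested genes. Of the 28, 8 were higher and 1 was lower in every miDrp1KO library, beside 7.67% and 10.3% of all tested genes. Some passed the filter on low counts only through miDrp1KO libraries. Snord14c, for example, held 4 to 6 counts in controls and 13 to 21 in miDrp1KO libraries. The filter thus helped to set the direction of these tallies, which are given as a description and not as a test. The 28 RNAs ran from -0.87 for Snord2 to 1.92 for Scarna2.

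Without A and C, the log2 fold change was 1.58 for Rnu2-10 and 2.09 for Bc1. Both RNAs are among those by which A and C stood apart, so these values are given with no test. In the same comparison Rnu3b2 was at 1.35, with an adjusted p of 0.362 in edgeR over all 6 libraries. Snord17 was at 2.13, Snora74a at 1.48, Snora73a at 1.42, Scarna2 at 2.06 and the processing gene Nop14 at -1.09. With all 6 libraries the adjusted p of these 5 genes in edgeR was 0.382, 0.362, 0.393, 0.46 and 0.379. In Rnu3b2, Snord17, Snora74a and Snora73a, A was the lowest miDrp1KO library and C the highest control. Scarna2 was at 0.972 CPM in A, beside 6.15 in E and 6.29 in F. Leaving out A and C, a choice made on structured RNAs, thus widened such differences, and these values are also given with no test. Of the cell type markers, the macrophage gene Lyz2 (0.95, adjusted p 0.0474 in edgeR) and the adipocyte gene Lep (-2.01, adjusted p 0.0434) passed there. Both were named after their values were seen, beside 0.921% of all genes that passed. The part of such cells in the RNA values was not tested. The ribosomal row Rn18s, also named after its value was seen, was at a log2 fold change of 1.01 (SE 1.33) over all 6 libraries. Rn4.5s, named in the same way and not among the 28 ribosomal RNA rows, was at 1.14 (SE 0.46, adjusted p 0.416 in edgeR). The long nuclear RNAs had a median of 0.09 over 7 genes. Of these, 0 passed in edgeR and 1 had an unadjusted p under 0.05, beside 10.9% of all tested genes.

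**Figure D5:**
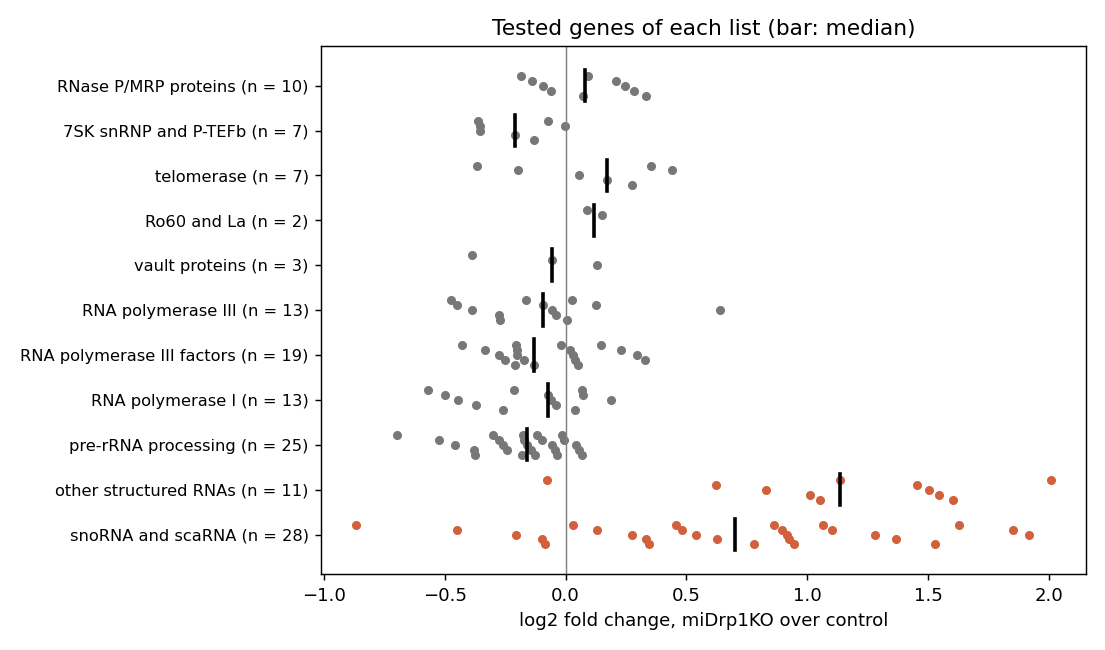
The log2 fold change of every tested gene in 9 lists of partner proteins, polymerases and processing factors (grey) and 2 lists of structured RNAs (orange), with the median of each list as a bar. The protein lists have medians between -0.21 and 0.17, and the RNA lists have medians of 1.14 and 0.70 over their 11 and 28 tested members.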

How the data were processed

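The authors deposited raw counts per gene, 1 table per library, without normalization. Per the study's methods, quadriceps muscle was homogenized in TRIzol and RNA was isolated with a Qiagen RNeasy Mini kit. Stranded libraries were made after RiboZero Gold depletion. After a check in FastQC, reads were placed on GRCm38 and assigned to genes by Rsubread. Whether counting used strand, and how reads on several copies were assigned, is not given in the sources used here. Counts were tested in edgeR 4.0.16 (R 4.3.3) by the quasi-likelihood test with TMM, filterByExpr by genotype and Benjamini-Hochberg adjustment at 0.05 over all 16483 tested genes, with DESeq2 1.42.0 and limma 3.58.1 (voom) as alternatives. Log2 CPM used a prior count of 2. The model was tested on simulated data with the same dispersion for all genes and no split between libraries such as that of A and C. That run does not bear on how it treats these RNAs. Standard errors were the log2 fold change divided by the square root of F. The depth was 13989588 to 62042255 counts, so 3 counts, the limit that a count of 0 allows, were between 0.05 and 0.219 CPM. Mice are the replicates as labelled. The RNAs, the gene lists and the alternatives were chosen with earlier results of these data known. Named genes were the 8 RNAs, tested members of the partner, polymerase and structured RNA lists (first the extremes and closest partners of each), the 5 genes most like Rpph1 and Rmrp, the nearest neighbours and Dnm1l; others are marked as chosen after their values were seen. Transcripts are from GENCODE M21 and promoter windows from RefSeq (GRCm38.p6). No RNA of the set had a promoter entry of its own, and Rn45s had no position.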

Additional observations from a re-analysis of the deposited data

How the results depend on the processing

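Rpph1, Rmrp, Rn7sk, Rny1, Rny3 and Vaultrc5 had positive log2 fold changes under all alternatives that gave a value, although Rny3 came to 0.09 without E. The 4 of these that were tested had no adjusted p under 0.05. Leaving out each library in turn, the log2 fold change ran from 1.22 (without F) to 1.97 (without C) for Rpph1, 1.03 to 1.57 for Rmrp, 0.84 to 1.53 for Rn7sk, 0.61 to 1.32 for Rny1, 0.09 to 0.90 for Rny3, 0.94 to 1.29 for Vaultrc5 and 0.33 to 1.60 for Rn45s. Without A and C, a choice made after seeing the data, it was 2.25 for Rpph1. With A and C kept as a block, also chosen after seeing the data, it was 1.63 for Rpph1 and 1.25 for Rmrp. Bc1, one of the RNAs by which A and C stood apart, was at 2.10 in that fit, given with no test because the block follows from such RNAs. Of all genes, 1 higher and 1 lower passed, against 16 and 39 with DESeq2, 4 and 4 with no filter, 6 and 7 with that block, and 45 and 119 without A and C. The number lower was 0 to 6 when single libraries were left out (0 without E or F, 2 without B, 6 without A). DESeq2 called Rnu3b2 (log2 fold change 1.07, adjusted p 0.0437), Snora74a (1.08) and Snord17 (1.53) among the structured RNAs. Rn45s was at -0.26 with its own share as a covariate, a value that does not describe its level because the share is computed from its counts.

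The correlation with the Rn45s share, leaving out each library in turn, ran from -0.41 to 0.57 for Rpph1, -0.48 to 0.63 for Rmrp, -0.83 to 0.29 for Rn7sk, -0.68 to 0.15 for Rny1 and -0.27 to 0.78 for Vaultrc5. It was positive for Rn7sk, Rny1 and Vaultrc5 without E and negative for Rpph1 and Rmrp without D or F. With CPM that had no TMM it was -0.11 for Rpph1 and -0.18 for Rmrp. Over 10 alternatives it ran from -0.88 to -0.02 for Rny3 and from 0.09 to 0.83 for Terc. No adjusted p in any setting was below 0.117. The cause of these changes was not tested. The median was 0.71 to 1.42 over the other structured RNAs in all alternatives, and 0.34 (no filter) to 0.95 (at least 10 counts in every library) over the nucleolar and Cajal body RNAs. The median of the vault proteins changed sign in 5 of 16 alternatives and that of RNA polymerase I in 1. No paired analysis was possible because the labels give no number or mark that a control and a miDrp1KO library share. Depth limits Terc, Rny1 and Rny3, which held 1 to 76 counts a library.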
